A study of Mus musculus with 8 samples.

Results

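The mRNA levels of 43 mouse genes of DNA replication were followed in livers of Fah-/- mice under chronic and acute injury. The genes were taken by symbol from the deposited table of 22504 genes and cover origin licensing, the replisome, nucleotide supply and the copying of chromatin. A gene was tested if its FPKM (fragments scaled to transcript length and to the mapped fragments of the sample) reached 0.5 in 2 or more samples of 8, which 39 of the 43 genes and 12125 of all genes did. The 4 genes below that limit were Orc1, Cdc6, Cdt1 and Gins2.

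Mice lacking Fah, the last enzyme of tyrosine breakdown, accumulate toxic intermediates in hepatocytes unless they receive NTBC, a drug that blocks the pathway upstream. All 8 mice were Fah-/- on the 129S4 background and were kept on NTBC at 7.5 mg/L before injury. Moderate chronic liver injury was induced by lowering NTBC to 2.5% of that dose, and severe acute liver injury by withdrawing it. The group C 8w had 8 weeks of moderate chronic injury (3 liver samples, 1a, 2a and 3a), C 12w had 12 weeks of it (2 samples, 2e and 3e, with the tissue labelled tumor), and C 8w + A 4w had 8 weeks of moderate chronic injury followed by 4 weeks of severe acute injury (3 liver samples, C096, C097 and C098). No sample from a mouse on the full NTBC dose was analysed here, so no group stands for uninjured liver. In both comparisons with C 12w, tumor tissue is set against liver. Tissue type and injury time cannot be told apart between C 12w and C 8w.

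Replication begins when the origin recognition complex, with CDC6 and CDT1, loads the MCM helicase onto DNA. CDC45 and the GINS complex then turn that ring into an active helicase, primase and the polymerases copy both strands, and the PCNA clamp holds the polymerases on the template. Most of these genes are transcribed at the entry into S phase under E2F factors. Adult hepatocytes are largely quiescent and replicate DNA again after injury or during tumor growth.

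FPKM values hold no read counts, so the sequencing depth and counting error of each sample are unknown, and p-values measure only the spread between these mice. The 5 chronic injury samples (C 8w and C 12w) share one series of sample names and the 3 samples of C 8w + A 4w another, so this group and its name series cannot be told apart. Alb, the main hepatocyte product, was listed at 0 in all 5 samples of the first series and between 12946 and 16949.8 FPKM in the second, so a listed 0 is not read here as absent expression. The 7 other hepatocyte markers were above 0 in all 8 samples, with their sum (without Alb) at 5072 to 8479 FPKM in the first series and 3614 to 5355 in the second, and the summed FPKM of 7 retina markers, checked because one protocol label names retinas, was at most 0.203. Fah was listed at 13.5 to 16.8 FPKM in the first series and 5.02 to 6.36 in the second. A value for the whole gene does not resolve which part of Fah is disrupted, so it does not check the genotype.

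The promoters of the replication genes carry a sequence that their mRNA values did not choose, and it is shown here for the called genes that hold it upstream of the annotated start. RefSeq promoters (250 bases before to 50 after each start, assembly GRCm38.p6) were matched for 35 of the 43 genes, with 42 promoters among them. Gmnn, Mcm4, Gins1, Gins2, Gins4, Prim2, Pole and Rfc2 were not matched. The letters TTTCCCGC, TTTCGCGC, TTTGCCGC and TTTGGCGC, forms of the site that E2F factors bind, were searched on both strands, and a match to one form can overlap a match to another. In the stretches below, read 5′ to 3′ on the strand of the gene, capitals mark the matches with 20 bases on each side.
Mcm6 (chr1:128359725-128359835, minus strand): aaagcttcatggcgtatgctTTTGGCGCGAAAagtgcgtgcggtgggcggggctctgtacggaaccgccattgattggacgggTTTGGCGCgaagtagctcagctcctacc
Mcm5 (chr8:75109336-75109387, plus strand): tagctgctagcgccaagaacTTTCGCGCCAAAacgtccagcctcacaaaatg
Uhrf1 (chr17:56304108-56304155, plus strand): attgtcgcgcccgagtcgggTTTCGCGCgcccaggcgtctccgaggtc
Mcm7 (chr5:138172021-138172068, minus strand): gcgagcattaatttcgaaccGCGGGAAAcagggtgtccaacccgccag
Pola1 (chrX:93632266-93632313, minus strand): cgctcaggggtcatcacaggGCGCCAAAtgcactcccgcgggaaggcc
Dnmt1 (chr9:20952815-20952862, minus strand): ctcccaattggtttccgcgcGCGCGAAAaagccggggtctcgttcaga

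The Mcm6 promoter held 3 matches, of which the first 2 overlap, and the Mcm5 promoter held an overlapping pair in opposite orientations. A match was found in 14 of the 42 promoters (33.3%), against 461 of the 11975 promoters of all genes tested (3.85%) and 744 of all 32851 promoters (2.26%). Base composition was alike, with a median GC content of 60.7% in the promoters of the replication genes and 60.3% in those of all genes tested. In promoters of at least 60% GC, the shares were 36.4% and 4.69%. Among a second list of 53 other replication genes, described at the end, 16 of 55 promoters (29.1%) held a match. The matches were not confined to genes that differed between groups. Of 25 promoters of the genes called higher after 12 weeks than after 8, 8 held one (32%). Of 14 promoters of the tested genes that were not called, 3 held one (21.4%). The 25 promoters belong to 18 genes and the 14 to 14 genes, so by gene the counts were 8 of 18 and 3 of 14. The other 3 promoters with a match belong to Orc1, Cdc6 and Cdt1, which were not tested. A match is a description of the letters and not evidence of binding.

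**Figure D1:**
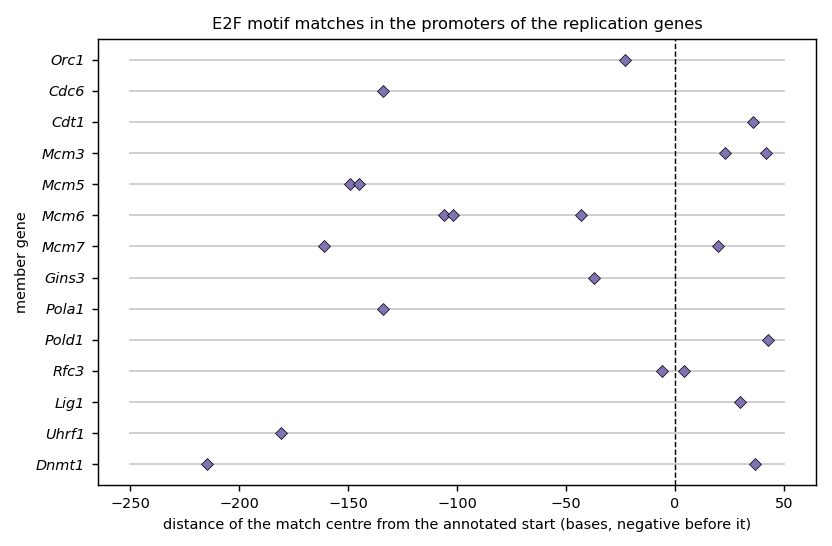
Position of each E2F motif match (diamond) in the promoters of the 14 replication genes that hold one, as the distance in bases of the match centre from the annotated start on the horizontal axis, with grey lines from 250 bases before to 50 after it. Mcm6 holds 3 matches before the start, and the pair in Mcm5 lies about 145 to 149 bases before it.

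Across the 39 genes tested, mRNA levels were highest in C 12w. The mean FPKM was highest in C 12w for 35 of the 39 genes, after acute injury for 3 (Gmnn, Pcna and Fen1) and in C 8w for 1 (Mcm10). Of all genes tested, 39.7% had their highest mean in C 12w and 40% after acute injury. The summed FPKM of the replication genes was 87.1 to 99.2 for C 8w, 158 and 228 for C 12w, and 109 to 125 for C 8w + A 4w. The median gene had 1.66 to 2.11 FPKM for C 8w, 3.42 and 5.38 for C 12w and 1.39 to 2.08 for C 8w + A 4w. Pcna, described separately, makes up 20.5 to 25.6 of the sum after acute injury and 3.88 to 5.14 in C 8w, and the median genes of these groups overlap. In bulk tissue, a change in the number of replicating cells and a change in mRNA per cell cannot be told apart.

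**Figure D2:**
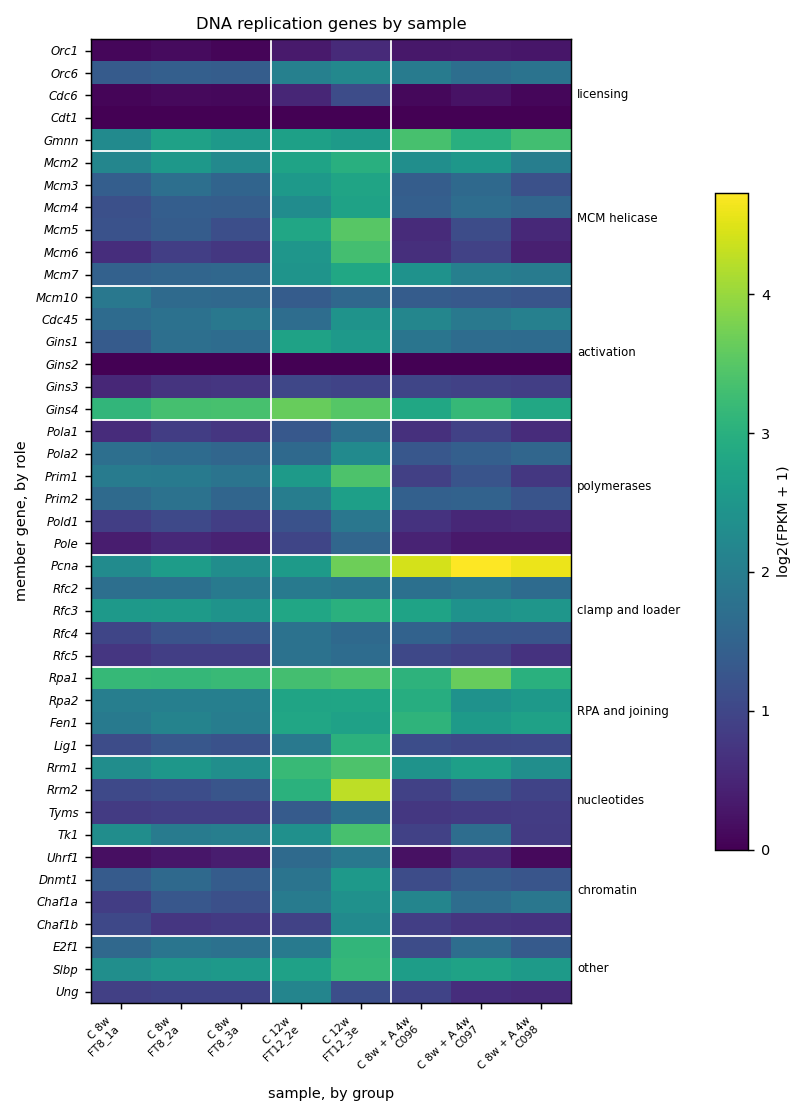
Heatmap of log2(FPKM + 1) for the 43 replication genes (rows, grouped by role) in the 8 samples (columns, by group), from dark (0) to yellow (highest). The 2 C 12w columns are brighter in most rows, Pcna stands out in the 3 C 8w + A 4w columns, and Cdt1 and Gins2 are at 0 throughout.

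Between C 12w, the tissue labelled tumor, and C 8w liver, 22 of the 39 replication genes were called higher in C 12w and 0 lower (limma, adjusted p under 0.05), while of all genes tested 12.3% were called higher and 6.34% lower (18.6% in all). The median difference on the log2(FPKM + 1) scale was 0.74 for the replication genes and 0.12 for all genes, and 38 of the 39 had a positive difference. This scale understates changes of weakly expressed genes, and the median ratio of mean FPKM was 2.12. Both C 12w samples were above all 3 C 8w samples for 32 genes, against 35% of all genes. Mcm10 was the only one of the 39 with both C 12w samples below C 8w, against 18.8% of all genes. With the samples scaled by their median ratio, 21 of the 39 were called higher and 0 lower. Of the 12125 genes, 1123 were then called higher and 1200 lower. Without C 8w sample 1a, or without 3a, 13 of the 39 genes were called (885 and 933 of all 12125 genes, from 2257), and the calls of Pola1, Prim1, Prim2, Pole, Rfc4, Rpa2, Fen1, Lig1 and Dnmt1 were lost (adjusted p between 0.0544 and 0.135). Prim1, Prim2, Rfc4, Rpa2 and Dnmt1 also lost theirs without 2a, Rfc4 without 2e, and Pola1, Prim2 and Dnmt1 without 3e. Without 3e, the difference was 0.68 for Prim1, 0.35 for Prim2, 0.53 for Pole, 0.73 for Lig1 and 0.37 for Dnmt1. Prim2 and Dnmt1 were also not called when any C 8w + A 4w sample was left out of the shared fit, nor Rfc4 without C098. Of the 22 genes that share at most 2% of their sequence windows with others, 10 were called higher, against 12.9% of all tested genes with as little shared sequence. The other 12 calls are among the 17 genes that share more. They include Fen1 (76.7% of its windows), Chaf1a (49.7%), Mcm7 (23.3%), Uhrf1 (15.4%), Rfc5 (13.3%) and Rfc4 (9.14%). Pole and Uhrf1 passed the filter only through the C 12w samples, so the filter favoured the direction of their calls. With at least 1 FPKM in at least 4 samples, 16 of 29 replication genes were called higher and 0 lower. Of all 10244 genes tested in that setting, 1247 were called higher and 715 lower.

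Among the licensing genes, Orc6, a subunit of the origin recognition complex, was at 1.57, 1.7 and 1.63 FPKM (C 8w), 3.17 and 3.65 FPKM (C 12w), and 2.92, 2.27 and 2.48 FPKM (C 8w + A 4w). Every C 12w sample lay above every C 8w sample, with a difference of 0.74 (standard error 0.12, adjusted p = 0.00623). Gmnn, which encodes geminin, the inhibitor of CDT1, was at 3.81, 5.52 and 4.84 FPKM (C 8w), 5.43 and 4.94 FPKM (C 12w), and 9.19, 6.97 and 8.81 FPKM (C 8w + A 4w). Both C 12w samples lay within the C 8w range, with a difference of 0.12 (95% interval -0.26 to 0.50, adjusted p = 0.624). Of the loading factors, Cdc6 was listed at 0.0426 to 0.0935 FPKM (C 8w), 0.418 and 1.14 FPKM (C 12w) and 0.0633 to 0.178 FPKM (C 8w + A 4w). Orc1 was listed at 0.0393 to 0.104 FPKM (C 8w), 0.26 and 0.483 FPKM (C 12w) and 0.224 to 0.256 FPKM (C 8w + A 4w). Both genes were highest in the C 12w samples, although for Orc1 2e (0.26) was barely above the highest C 8w + A 4w sample (0.256). Apart from Cdc6 in 3e, all these values were below 0.5 FPKM, and neither gene was tested. Cdt1 and Gins2 were listed at 0 in all 8 samples, which gives no level for them, as was Gse1, in whose sequence 65.4% of the windows of Gins2 occur.

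The MCM helicase genes moved most as a group, with 5 of the 6 called higher in C 12w and a median difference of 1.15. Mcm6 was at 0.545, 0.827 and 0.691 FPKM (C 8w), 4.59 and 9.02 FPKM (C 12w), and 0.557, 0.908 and 0.342 FPKM (C 8w + A 4w). Mcm5 was at 1.29, 1.59 and 1.2 FPKM (C 8w), 5.96 and 10.4 FPKM (C 12w), and 0.503, 1.15 and 0.462 FPKM (C 8w + A 4w). Both genes were several times higher in each C 12w sample than in any other sample, with differences of 2.15 (standard error 0.25, adjusted p = 0.00149) for Mcm6 and 1.92 (standard error 0.24, adjusted p = 0.00216) for Mcm5. Mcm4 was at 1.24, 1.65 and 1.63 FPKM (C 8w), 3.92 and 5.65 FPKM (C 12w), and 1.71, 2.24 and 1.97 FPKM (C 8w + A 4w), with a difference of 1.20 (standard error 0.16, adjusted p = 0.00303). Mcm3 was at 1.66, 2.31 and 1.87 FPKM (C 8w), 4.8 and 5.82 FPKM (C 12w), and 1.63, 2.08 and 1.25 FPKM (C 8w + A 4w), with a difference of 1.10 (standard error 0.17, adjusted p = 0.0046). Mcm7 was at 1.75, 1.91 and 1.98 FPKM (C 8w), 4.45 and 6.08 FPKM (C 12w), and 4.33, 3.1 and 2.9 FPKM (C 8w + A 4w), with a difference of 1.11 (standard error 0.17, adjusted p = 0.00496). None of these 3 genes had a C 12w sample within the C 8w range, although 23.3% of the windows of Mcm7 occur in other genes. Mcm2, the most abundant of the 6 in C 8w, was at 3.51, 4.75 and 3.67 FPKM (C 8w), 5.68 and 6.95 FPKM (C 12w), and 4.07, 4.66 and 3.06 FPKM (C 8w + A 4w), and its difference of 0.56 was not called (adjusted p = 0.0615). The 6 proteins form a ring with 1 copy of each, and their mRNA levels, which FPKM gives per length, were more alike in C 12w: the highest of the 6 was 5.31 to 6.44 times the lowest for C 8w, 1.52 and 1.84 times for C 12w, and 5.14 to 8.96 times for C 8w + A 4w. The genes with the lowest levels in C 8w, Mcm6 and Mcm5, were those with the largest differences.

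Of the genes that turn the loaded ring into a moving helicase, 1 of 5 was called. Gins1, a GINS subunit, was at 1.57, 2.33 and 2.19 FPKM (C 8w), 5.61 and 4.84 FPKM (C 12w), and 2.58, 2.18 and 2.15 FPKM (C 8w + A 4w), with a difference of 1.04 (standard error 0.15, adjusted p = 0.00354). Both C 12w samples were above all other samples. Gins4, the most abundant of these genes, was at 7.68, 9.04 and 9.29 FPKM (C 8w), 11.4 and 10.2 FPKM (C 12w), and 6.04, 7.96 and 6.11 FPKM (C 8w + A 4w), with a difference of 0.29 that was not called (adjusted p = 0.192). Gins3 and Cdc45, which completes the helicase, had differences of 0.32 and 0.29 that were not called either. Mcm10, a helicase activation factor that is not part of the ring, was at 2.71, 2.11 and 2.03 FPKM (C 8w), 1.6 and 1.99 FPKM (C 12w), and 1.6, 1.49 and 1.37 FPKM (C 8w + A 4w). It was the only tested gene with a negative difference, -0.23 (95% interval -0.54 to 0.08, adjusted p = 0.245).

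Of the primase and polymerase genes, 4 of 6 were called higher. Prim1, the catalytic subunit of primase, was at 2.9, 2.82 and 2.54 FPKM (C 8w), 4.99 and 9.68 FPKM (C 12w), and 0.865, 1.35 and 0.713 FPKM (C 8w + A 4w), with a difference of 1.09 (standard error 0.24, adjusted p = 0.0181). Its partner Prim2 was at 2.1, 2.45 and 1.93 FPKM (C 8w), 3.02 and 5.38 FPKM (C 12w), and 1.72, 1.79 and 1.34 FPKM (C 8w + A 4w), with a difference of 0.68 (standard error 0.20, adjusted p = 0.0443). Both subunits were above the C 8w range in each C 12w sample, and 3e was the higher of the C 12w samples. Pola1, the catalytic subunit of polymerase alpha, was at 0.51, 0.822 and 0.68 FPKM (C 8w), 1.47 and 2.36 FPKM (C 12w), and 0.568, 0.879 and 0.517 FPKM (C 8w + A 4w), with a difference of 0.79 (standard error 0.17, adjusted p = 0.0172). Pole, the catalytic subunit of the leading strand polymerase epsilon, was at 0.30, 0.457 and 0.365 FPKM (C 8w), 0.983 and 1.95 FPKM (C 12w), and 0.394, 0.254 and 0.256 FPKM (C 8w + A 4w), with a difference of 0.82 (standard error 0.17, adjusted p = 0.015). Pold1, the catalytic subunit of the lagging strand polymerase delta, was at 0.848, 1.06 and 0.839 FPKM (C 8w), 1.28 and 2.65 FPKM (C 12w), and 0.617, 0.44 and 0.488 FPKM (C 8w + A 4w). Its C 12w samples were also above C 8w, and the difference of 0.59 was not called (adjusted p = 0.0625). Pola2, the second subunit of polymerase alpha, overlapped between the groups, with a difference of 0.29.

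In the clamp loader, Rfc5 was at 0.685, 0.841 and 0.832 FPKM (C 8w), 2.45 and 2.2 FPKM (C 12w), and 1.04, 0.915 and 0.609 FPKM (C 8w + A 4w), with a difference of 0.90 (standard error 0.13, adjusted p = 0.00414), and Rfc4 was at 0.996, 1.31 and 1.45 FPKM (C 8w), 2.43 and 2.08 FPKM (C 12w), and 1.81, 1.4 and 1.39 FPKM (C 8w + A 4w), with a difference of 0.53 (standard error 0.14, adjusted p = 0.0325). The C 12w samples of both genes lay above all others. Rfc3, the most abundant of the loader genes, was at 4.92, 4.95 and 4.36 FPKM (C 8w), 5.92 and 6.99 FPKM (C 12w), and 5.74, 4.33 and 4.57 FPKM (C 8w + A 4w), and Rfc3 and Rfc2 had differences of 0.38 and 0.10 that were not called. Of the genes for single-strand binding and Okazaki fragment joining, 3 of 4 were called. Lig1, the ligase that seals Okazaki fragments, was at 1.14, 1.43 and 1.28 FPKM (C 8w), 2.78 and 7.18 FPKM (C 12w), and 1.17, 1.03 and 1.07 FPKM (C 8w + A 4w), with a difference of 1.29 (standard error 0.27, adjusted p = 0.0163). Its C 12w value rests largely on 3e, which had 2.58 times the level of 2e. Fen1, the flap nuclease that trims the fragments, was at 2.81, 3.31 and 3.03 FPKM (C 8w), 5.96 and 5.56 FPKM (C 12w), and 7.4, 5.0 and 5.54 FPKM (C 8w + A 4w), with a difference of 0.74 (standard error 0.16, adjusted p = 0.016). Rpa2, a subunit of the single-strand binding protein RPA, was at 3.07, 3.14 and 3.14 FPKM (C 8w), 5.82 and 5.91 FPKM (C 12w), and 6.7, 4.32 and 4.87 FPKM (C 8w + A 4w), with a difference of 0.74 (standard error 0.16, adjusted p = 0.0171). For both, the C 12w samples were close to each other and above C 8w. Rpa1, the large RPA subunit and the most abundant of this group, was at 7.95, 7.89 and 8.18 FPKM (C 8w), 8.96 and 9.55 FPKM (C 12w), and 7.3, 11.3 and 7.02 FPKM (C 8w + A 4w), with a difference of 0.19 that was not called (adjusted p = 0.491).

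Nucleotide supply held the largest difference of all 39 genes. Rrm2, the small subunit of ribonucleotide reductase, which makes deoxynucleotides and is limiting outside S phase, was at 1.05, 1.17 and 1.38 FPKM (C 8w), 7.15 and 18.2 FPKM (C 12w), and 0.89, 1.38 and 0.931 FPKM (C 8w + A 4w). Each C 12w sample was several times above every other sample, with a difference of 2.51 (standard error 0.31, adjusted p = 0.00203). The large subunit Rrm1 was at 4.02, 4.67 and 4.04 FPKM (C 8w), 8.16 and 9.69 FPKM (C 12w), and 4.37, 5.36 and 4.04 FPKM (C 8w + A 4w), with a difference of 0.92 (standard error 0.14, adjusted p = 0.00492). Tyms, thymidylate synthase, was at 0.775, 0.847 and 0.833 FPKM (C 8w), 1.57 and 2.34 FPKM (C 12w), and 0.692, 0.739 and 0.802 FPKM (C 8w + A 4w), with a difference of 0.69 (standard error 0.13, adjusted p = 0.0113). These genes too had no C 12w sample within the C 8w range. Tk1, which salvages thymidine, was at 4.02, 2.93 and 3.05 FPKM (C 8w), 4.18 and 9.21 FPKM (C 12w), and 0.884, 2.25 and 0.765 FPKM (C 8w + A 4w). Sample 2e was barely above the highest C 8w sample and 3e far above it, and the difference of 0.76 was not called (adjusted p = 0.141).

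Among the genes that copy chromatin and DNA methylation, Uhrf1, which recognises hemimethylated DNA, was at 0.141, 0.227 and 0.308 FPKM (C 8w), 2.12 and 2.73 FPKM (C 12w), and 0.162, 0.43 and 0.091 FPKM (C 8w + A 4w), with a difference of 1.48 (standard error 0.15, adjusted p = 0.000999). Both C 12w samples lay far above the others, which were all under the filter limit, so the filter favoured this direction. Dnmt1, the maintenance methyltransferase that UHRF1 recruits, was at 1.55, 2.06 and 1.6 FPKM (C 8w), 2.52 and 4.84 FPKM (C 12w), and 1.13, 1.57 and 1.37 FPKM (C 8w + A 4w), with a difference of 0.73 (standard error 0.21, adjusted p = 0.0446). Chaf1a, the large subunit of chromatin assembly factor CAF-1, was at 0.826, 1.44 and 1.23 FPKM (C 8w), 2.92 and 4.24 FPKM (C 12w), and 3.45, 2.22 and 2.66 FPKM (C 8w + A 4w), with a difference of 1.08 (standard error 0.20, adjusted p = 0.0095). All 3 genes were above the C 8w range in both C 12w samples. Chaf1b, the second CAF-1 subunit, was at 1.03, 0.68 and 0.756 FPKM (C 8w), 0.913 and 3.82 FPKM (C 12w), and 0.839, 0.661 and 0.622 FPKM (C 8w + A 4w), high in 3e only, and was not called (adjusted p = 0.137). Of the remaining 3 genes, 0 were called. E2f1, a transcription factor of S phase entry, was at 2.01, 2.59 and 2.42 FPKM (C 8w), 2.82 and 7.66 FPKM (C 12w), and 1.14, 2.22 and 1.52 FPKM (C 8w + A 4w), with 2e just above the C 8w range and 3e far above it (0.79, adjusted p = 0.112). Ung, which removes uracil from DNA, was at 0.859, 0.927 and 0.929 FPKM (C 8w), 3.42 and 1.19 FPKM (C 12w), and 0.941, 0.544 and 0.472 FPKM (C 8w + A 4w), and was the gene in which 2e most exceeded 3e. Slbp, which binds histone mRNA, was at 4.05, 4.6 and 4.82 FPKM (C 8w), 5.52 and 7.94 FPKM (C 12w), and 5.21, 5.61 and 4.97 FPKM (C 8w + A 4w), with a difference of 0.48 that was not called (adjusted p = 0.0611).

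**Figure D3:**
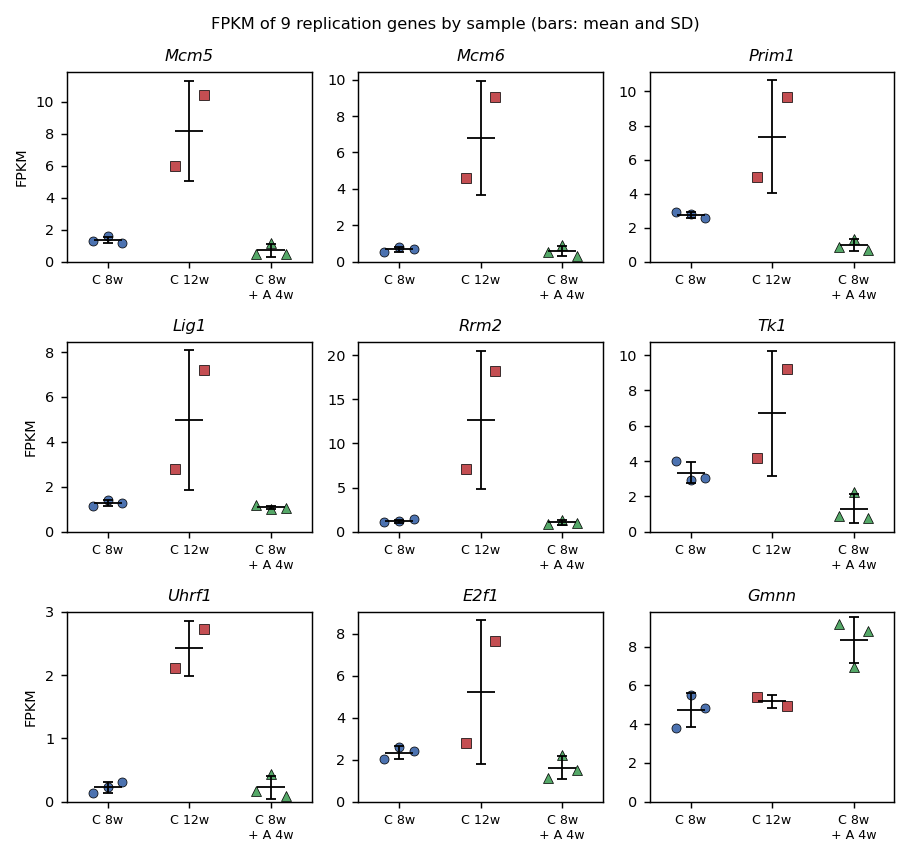
FPKM (vertical axes, each from 0) of 9 replication genes in every sample (points) with the group mean and SD (bars), for C 8w (circles, n = 3), C 12w (squares, n = 2) and C 8w + A 4w (triangles, n = 3). In every panel but that of Gmnn, sample 3e is the highest of all 8 samples, and Gmnn is highest in C 8w + A 4w.

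The C 12w samples differed between themselves. Sample 3e exceeded 2e in 30 of the 39 genes, against 61.2% of all genes tested, with a median ratio of 1.44 against 1.11 for all genes. The ratio ranged from 0.347 (Ung) to 4.19 (Chaf1b). The genes higher in 2e were Gmnn, Gins1, Gins3, Gins4, Rfc2, Rfc4, Rfc5, Fen1 and Ung, mostly by small margins. Both C 12w samples were nevertheless above all 6 other samples in 26 of the 39 genes, against 14.3% of all genes. Markers of other cell types differed as well. The summed FPKM of 7 bile duct markers was 13.4 to 18.5 in C 8w, 32.0 in 2e and 355 in 3e, with 3 of them called higher in C 12w. Most of that sum was Spp1 (22.2 FPKM in 2e and 311 in 3e), and the other 6 summed to 5.16 to 6.71 in C 8w, 9.77 in 2e and 44.0 in 3e. Sox9, Epcam, Krt7 and Cftr (the last at most 0.0396 FPKM in any sample) were above C 8w in both C 12w samples, and Krt19 in neither. These single markers were named after their values were seen. The sum of 5 stellate cell and fibroblast markers was 10.4 to 12.6 in C 8w, 18.1 in 2e and 30.5 in 3e, with 3 of them above C 8w in both C 12w samples, of which 2 were called, and 1 below. Macrophage markers summed to 96 to 107 FPKM (C 8w) and to 105 and 103 FPKM (C 12w), but 3 of the 7 were above C 8w in both C 12w samples, of which 1 was called, and 2 were below. Endothelial markers summed to 23.6 to 29.0 in C 8w and to 20.2 and 19.7 in C 12w, with 2 of the 5 called lower. The 8 lymphocyte markers summed to at most 3.01 in any sample. The 4 erythroid precursor markers summed to at most 2.19, with 2 called lower in C 12w. Of the 8 hepatocyte markers, 1 was called higher in C 12w and 0 lower. The part of these cells in the replication genes was not tested.

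The comparison of C 8w + A 4w with C 8w asks what severe acute injury adds to chronic injury. Its groups also differ in total time (12 against 8 weeks), which cannot be told apart from the added injury. Of the 39 genes, 7 were called higher in C 8w + A 4w (Orc6, Gmnn, Mcm7, Pcna, Rpa2, Fen1 and Chaf1a) and 3 lower (Mcm10, Prim1 and Tk1), against 24.2% and 12.6% of all genes tested. In either direction 10 were called, against 36.8% of all genes. With the samples scaled by their median ratio, 7 were called higher and 5 lower, against 2256 and 2226 of the 12125 genes. The median difference was -0.02, against 0.12 for all genes. The groups did not overlap in 11 genes that were higher, against 38.5% of all genes, and in 6 that were lower, against 21.1%. Without C 8w sample 1a, 6 genes were called (2672 of all genes, from 4464), and the calls of Orc6, Mcm7, Mcm10 and Tk1 were lost (adjusted p between 0.0637 and 0.126). The call of Orc6 was also lost without 3a or C096, and that of Mcm10 without C097. The summed bile duct markers were at 30.3 to 36.9 FPKM in C 8w + A 4w, above C 8w, with 1 of the 7 called higher and the sum without Spp1 at 11.2 to 13.8. Of the 8 hepatocyte markers 1 was called higher and 2 lower, and of the 5 endothelial markers 1 higher and 2 lower. Among the stellate cell and fibroblast markers 1 of 5 was called lower, as was 1 of 4 erythroid precursor markers. Of the macrophage and lymphocyte markers, 0 were called. The part of these cells was not tested.

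Of the 4 genes with the largest differences between C 12w and C 8w, none was called here. Mcm6 averaged 0.602 ± 0.286 FPKM after acute injury and 0.688 ± 0.141 without it (SD, n = 3 for each), with a 95% interval of the difference of -0.59 to 0.42. The interval was -0.73 to 0.54 for Rrm2 and -0.31 to 0.31 for Uhrf1. Mcm5 lay below C 8w in all 3 samples, with a difference of -0.49 that was not called (adjusted p = 0.109). Of the genes next in size, Lig1, Mcm4 and Mcm3 were not called, Mcm7 and Chaf1a were called higher and Prim1 lower. The called decreases were in Prim1, with a difference of -0.94 (standard error 0.21, adjusted p = 0.0101), Tk1 with -0.96 (standard error 0.30, adjusted p = 0.0354) and Mcm10 with -0.40 (standard error 0.12, adjusted p = 0.0311). All 3 C 8w + A 4w samples of each were below every C 8w sample. The calls for Tk1 and Mcm10 did not hold when any one of the C 8w samples, C096 or C098 was left out (adjusted p between 0.0523 and 0.126).

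Gmnn was the clearest increase in this comparison outside genes with shared sequence, at 8.33 ± 1.19 FPKM against 4.72 ± 0.864 (SD, n = 3 for each), a difference of 0.71 (standard error 0.15, adjusted p = 0.00705), and Rpa2 followed with 0.60 (standard error 0.14, adjusted p = 0.0121). The other 5 called increases are in genes that share over 2% of their 50-base windows with other genes: Fen1 (76.7%), Chaf1a (49.7%), Mcm7 (23.3%), Pcna (19.1%) and Orc6 (5.02%). Chaf1a had a difference of 0.80 (standard error 0.18, adjusted p = 0.00886). Ubxn6, in which most of the shared windows of Chaf1a occur, was at 9.0 to 12.9 FPKM in the first name series and 5.91 to 6.25 in the second, the opposite direction. Fen1 had a difference of 0.77 (standard error 0.14, adjusted p = 0.00358), and Mcm7 one of 0.61 (standard error 0.15, adjusted p = 0.0154). The genes that hold most of their shared windows, Gm10143 and Gm5487, were not analysed here.

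Pcna, the sliding clamp and a common marker of proliferation, was highest in C 8w + A 4w. It was at 3.88, 5.14 and 3.98 FPKM (C 8w), 4.96 and 11.9 FPKM (C 12w), and 20.5, 25.6 and 23 FPKM (C 8w + A 4w). All 3 C 8w + A 4w samples were above every other sample, with differences of 2.17 (standard error 0.26, adjusted p = 0.000426) against C 8w and 1.45 (standard error 0.29, adjusted p = 0.00631) against C 12w. The pseudogene Pcna-ps2 holds 19.1% of the windows of Pcna and was lowest where Pcna was highest, at 15.7, 21.5 and 20.4 FPKM (C 8w), 24.2 and 48.9 FPKM (C 12w) and 7.78, 7.74 and 7.63 FPKM (C 8w + A 4w). Within chronic injury both were higher in 3e than in any C 8w sample. Pcna made up 16.3% to 19.8% of the sum of both in the 5 samples of the first name series and 72.5% to 76.8% in the 3 samples of the second. The sum averaged 23.5 ± 3.58 FPKM (C 8w, SD, n = 3), 45 ± 22.4 FPKM (C 12w, SD, n = 2) and 30.7 ± 2.54 FPKM (C 8w + A 4w, SD, n = 3). All 3 C 8w + A 4w sums were above every C 8w sum. On the sum, a setting chosen after seeing the data, C 8w + A 4w differed from C 8w by 0.38 (adjusted p = 0.258), its difference from C 12w turned to -0.45 (adjusted p = 0.246), and C 12w differed from C 8w by 0.83 (adjusted p = 0.068). The share of reads that the authors' processing gave to each copy was not tested.

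**Figure D4:**
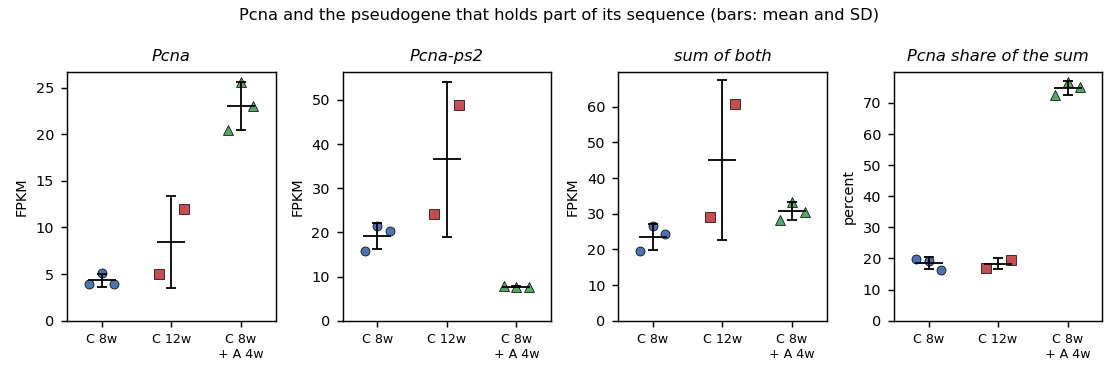
From left to right, FPKM of Pcna, of its pseudogene Pcna-ps2 and of their sum, and the percentage of the sum listed under Pcna, in every sample (points) with the group mean and SD (bars). The share of Pcna averages 18.5% for C 8w, 18.3% for C 12w and 74.8% for C 8w + A 4w, while the sums of C 8w + A 4w (28.2 to 33.3 FPKM) lie just above those of C 8w (19.6 to 26.6 FPKM).

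At the same total time of 12 weeks, C 8w + A 4w was compared with C 12w, and 22 of the 39 genes were called lower in C 8w + A 4w and 2 higher (Gmnn and Pcna), against 15.4% and 17.2% of all genes tested (32.6% in either direction). The median difference was -0.81, against -0.000579 for all genes, and all 3 C 8w + A 4w samples lay below both C 12w samples in 30 genes (24.4% of all genes) and above them in 2 (27.6%). This comparison shares the C 12w samples with the first and the C 8w + A 4w samples with the second, so it is not independent of them. The summed stellate cell and fibroblast markers were at 8.63 to 17.3 FPKM in C 8w + A 4w, with 1 of the 5 called higher than in C 12w and 2 lower. Of the 8 hepatocyte markers 1 (Alb) was called higher and 4 lower, of the 7 macrophage markers 1 lower and of the 7 bile duct markers 0. The part of these cells was not tested. Rrm2 fell by 2.61, Mcm5 by 2.41, Mcm6 by 2.24, Prim1 by 2.03 and Tk1 by 1.72 on the log2 scale (adjusted p between 0.000193 and 0.00575 in limma). All 4 nucleotide supply genes, 5 of 6 MCM genes and 5 of 6 polymerase and primase genes were called lower, against 2 of 5 helicase activation genes and 1 of 4 genes of single-strand binding and fragment joining. Genes called here and not between C 12w and C 8w were Mcm2, Gins4, Pold1, Tk1, E2f1 and Ung on the lower side. E2f1 had a difference of -1.15 (standard error 0.32, adjusted p = 0.0247) and Pold1 of -0.93 (standard error 0.19, adjusted p = 0.00702). Without 3e, the difference was -0.56 for E2f1, no longer called, -0.59 for Pold1, -0.62 for Prim2, -0.85 for Lig1 and -0.58 for Dnmt1, and Gmnn and Mcm2 were not called. Ung was not called without 2e (-0.42), and Pcna was at 0.89 without it. Gmnn, Mcm2 and E2f1 were also not called without C096 or C098, Mcm2 without 1a or 3a, and Ung without any one of the C 8w samples, C097 or C098. For Mcm7, Orc6, Rpa2, Fen1 and Chaf1a, which were called higher than C 8w in both other groups, the difference between these groups was not called.

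**Figure D5:**
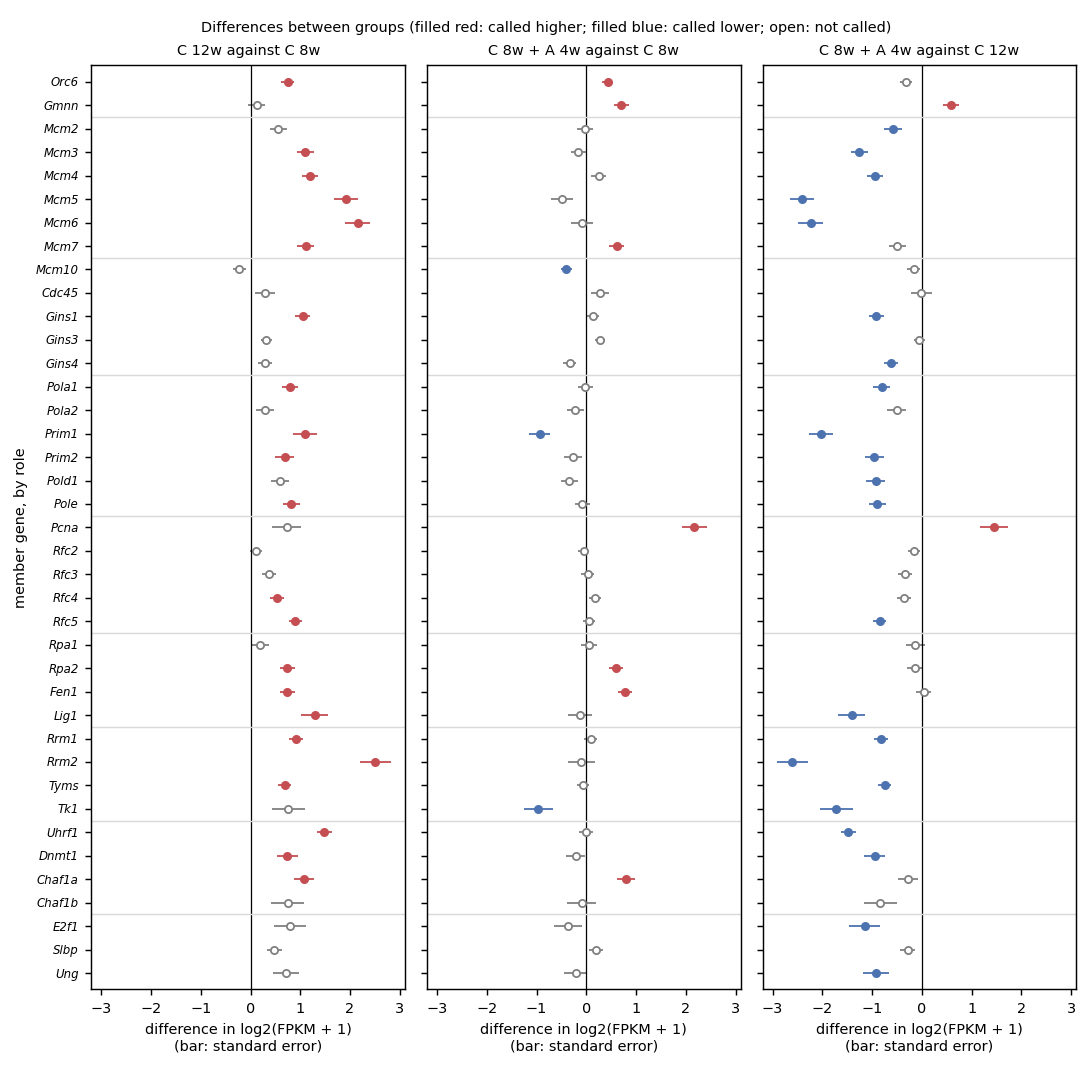
Difference in log2(FPKM + 1) with its standard error (horizontal axes) for the 39 tested replication genes (rows, by role) in the 3 comparisons. Points left of 0 are rare in C 12w against C 8w (1 of 39) and frequent in C 8w + A 4w against C 12w (36 of 39), with Rrm2, Mcm5 and Mcm6 farthest from 0 in both, and Pcna and Gmnn right of 0 in the last.

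Within C 8w + A 4w, C096 was the highest of the 3 samples in 18 of the 39 genes, C097 in 19 and C098 in 2. C097 was highest for Mcm5, Mcm6, Rrm2, Tk1, Uhrf1 and E2f1, and C096 for Lig1, Orc6, Mcm7, Rpa2, Fen1 and Chaf1a. C097 also stood apart in macrophage markers, whose sum was 242 FPKM against 74.8 and 77.8 in C096 and C098. The part of these cells was not tested.

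A second list held 53 other genes of replication, its regulation and its checkpoints, of which 47 were tested and Cdc7, Ticrr, Dscc1, Atad5, Clspn and E2f7 fell below the limit. Between C 12w and C 8w, 20 of them were called higher and 1 lower, against 12.3% and 6.34% of all genes tested, with a median difference of 0.44 (0.12 for all genes). Without 1a 9 were called, without 2a 12 and without 3a 11 (885, 1125 and 933 of all genes, from 2257). Top2a, the topoisomerase that untangles replicated DNA, was at 0.224, 0.54 and 0.343 FPKM (C 8w), 4.57 and 12.4 FPKM (C 12w), and 0.122, 0.63 and 0.111 FPKM (C 8w + A 4w), with a difference of 2.66 (standard error 0.34, adjusted p = 0.00228). Asf1b, a histone chaperone, had a difference of 1.51 (standard error 0.21, adjusted p = 0.00338), and Hells, a chromatin remodeller, of 1.43 (standard error 0.12, adjusted p = 0.000525). Dbf4, which activates the kinase that fires origins, rose by 1.01, E2f2 by 0.88 and Dtl, part of the ligase that degrades CDT1, by 0.83. Of the 20, E2f2, Dtl, Chtf18 and Wdhd1 passed the filter only through the C 12w samples, so the filter favoured the direction of their calls. With at least 1 FPKM in at least 4 samples, 11 of 33 genes were called higher and 1 lower (1247 and 715 of all 10244). Pole4, a small subunit of polymerase epsilon, was the exception, at 17.6, 19.6 and 18.3 FPKM (C 8w), 12.8 and 11.6 FPKM (C 12w), and 21.6, 20.9 and 19.7 FPKM (C 8w + A 4w), with a difference of -0.56 (standard error 0.11, adjusted p = 0.0116). Its C 12w samples lay below all others.

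In C 8w + A 4w against C 8w, 10 of the 47 were called higher and 3 lower, against 24.2% and 12.6% of all genes, with a median difference of 0.06 (0.12 for all genes). The largest increases were those of Asf1a (1.15), Pold4 (1.03), Orc2 (0.92), Rrm2b (0.77), E2f3 (0.75) and Pole3 (0.66). Rrm2b, the p53-induced counterpart of Rrm2 that supplies nucleotides outside S phase, was at 1.42, 1.95 and 1.76 FPKM (C 8w), 1.28 and 1.98 FPKM (C 12w), and 3.13, 4.49 and 3.28 FPKM (C 8w + A 4w). Its C 8w + A 4w samples were above all others. Of these 6, Asf1a shares 43.1% of its windows with other genes, Orc2 26.7%, Pold4 21.7% and Rrm2b 10.7%. The decreases included Chtf8 (-0.42), which shares 88.4% of its windows, and E2f8 (-0.53). In C 8w + A 4w against C 12w, 14 were called lower and 6 higher, against 15.4% and 17.2% of all genes. With at least 1 FPKM in at least 4 samples, 5 of 33 were called lower and 6 higher (1575 and 1781 of all 10244). Top2a, Asf1b, E2f8, Hells and E2f2 were among the largest decreases, with differences between -1.06 and -2.77, and the 6 higher genes were Orc2, Pold4, Pole3, Pole4, Rrm2b and Asf1a.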

How the data were processed

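RNA was sequenced from liver or tumor of 8 Fah-/- mice, and samples were grouped by their titles (C 8w, n = 3; C 12w, n = 2; C 8w + A 4w, n = 3). The authors deposited 1 table of FPKM per Ensembl gene. The submitters' processing notes name Bowtie 0.12.2 and the build mm8, and the quantifier and annotation are not given in the sources used here. Read counts, and with them depth and counting error, are unknown. The most common ratio between low FPKM values of 2 samples, a measure of relative depth, was 0.874 to 1.05 over all pairs. Within a name series, 1.97% to 9.55% of the low genes lay within 1% of it. Between the series only 1.63% to 2.37% did, against a median of 0.655% to 0.971% at other ratios. It is therefore a weak measure of depth between the series.

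FPKM was compared as log2(FPKM + 1) without further scaling in R 4.3.3 with limma 3.58.1 (lmFit, eBayes with a trend, two-sided, 1 fit of all 8 samples, Benjamini-Hochberg over the 12125 genes with at least 0.5 FPKM in at least 2 samples, threshold 0.05), checked on simulated data. A gene was called shared where over 2% of its 50-base transcript windows (GENCODE M21) occur in another gene on either strand. Promoters are from RefSeq (GRCm38.p6). The replication genes and the marker lists were chosen with earlier results of these data known. Every replication gene could be named, and those called, or among the 2 most abundant of a role, were given by sample. Of the second list, the 6 largest called differences per comparison and those against the main direction were named, except 1 gene that is counted but not reported here. Alternatives were other pseudocounts, filters, scalings and fits, and each sample left out.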

Additional observations from a re-analysis of the deposited data

How the results depend on the processing

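Counts of called genes are given as C 12w against C 8w, C 8w + A 4w against C 8w, and C 8w + A 4w against C 12w. With a log2 difference of at least 1 in size, the replication genes called were 11, 1 and 10 (22, 10 and 24 without it), the second list 4, 2 and 6 (21, 13 and 20) and all genes 647, 1255 and 1389 (2257, 4464 and 3957). With genes of at most 2% shared windows they were 10, 4 and 15, then 11, 5 and 9, and 1430, 2419 and 2092, since fewer genes were tested. With at least 1 FPKM in at least 4 samples, the second list had 12 calls in the first comparison and 11 in the last, and the median of the replication genes in the last was -0.51 (main value -0.81). A pseudocount of 0.1 moved the medians of the first and last to 0.98 and -1.15. With only the groups compared, 2367 genes were called in the last. Median-ratio scaling moved the share of higher genes among all called from 65.9% to 48.3% in the first and from 65.7% to 50.3% in the second, with 21 and 0 replication genes higher and lower in the first and 7 and 5 in the second, and scaling to the same total moved it from 52.7% to 37.3% in the last, with 1 higher and 26 lower.

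Leaving out 1 sample at a time gave 13 to 30, 6 to 13 and 20 to 27 replication genes, 9 to 28 and 8 to 16 genes of the second list in the first and second comparison, and 885 to 4322 and 2672 to 5784 of all genes. The medians of the replication genes ranged from 0.53 (without 3e) to 0.95 (without 2e) in the first and from -0.56 to -0.82 in the last. Of the calls for single genes, 13 of 22, 5 of 10 and 18 of 24 held in every other setting in which the gene was tested, apart from the replicate block and the limit on size. Summed with Pcna-ps2, Pcna lost its call in the second comparison and reversed in the last (-0.45).

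The numbers 2 and 3 occur as replicate labels in both chronic injury groups and belong to different mice. The differences between the numbers correlated at -0.168 over genes, which shows no shared pattern by number. With a single difference per group, this value cannot exclude a pairing. A fit of these 4 samples with the number as a replicate block called 16 of all genes, 0 replication genes and 0 of the second list, and a replicate block with the numbers crossed, chosen after seeing the data, called 2, 0 and 0. FPKM gives no counting error, so differences of genes listed near 0 have no depth limit that could be stated.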
